A study of Azumapecten farreri with 9 samples.

Results

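The predicted miRNA candidates of 20 to 24 bases were the lines whose name started with PC-, the prefix the miRNA software gives to a small RNA with no registered name, and whose sequence was 20 to 24 bases long. There were 144 of them among the 417 lines of the deposited table, 57 from the 5p arm and 87 from the 3p arm of a predicted hairpin, and no sequence was listed more than once among them. A further 3 predicted lines, PC-5p-1_12698927, PC-3p-31_188903 and PC-3p-83_47257, were left out by name, and 57 predicted lines were shorter or longer. Small RNA came from hemocytes of the Zhikong scallop (Azumapecten farreri, also named Chlamys farreri), in 3 groups of 3 libraries. Scallops of the PBS group were injected with phosphate-buffered saline, those of the second group with normal exosomes, and those of the third with LPS exosomes, named for a stimulation with lipopolysaccharide (LPS), a component of bacterial cell walls. The series title names the question, how exosomes modulate immunity via miRNAs. Nothing in the labels gives the age of the scallops, the source and dose of the exosomes, the time after injection or the number of animals behind a library. As nothing there says that libraries stem from separate animals either, p-values cover the spread between the 9 libraries alone, and that spread may be technical.

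Hemocytes are the circulating immune cells of bivalves, which engulf microbes and release antimicrobial molecules. Exosomes are membrane vesicles shed by cells, and they can pass RNA from one cell to another. A miRNA is cut from a hairpin precursor, whose stem gives a 5p and a 3p product. One of the pair is usually loaded into an Argonaute protein and kept, and the other is mostly degraded, so the arms of a hairpin often differ widely in level. Bases 2 to 8, the seed, make the main contact with target mRNAs, and miRNAs of one family share a seed. A predicted candidate has been called by software from reads and a foldable precursor alone, and whether a line here is a miRNA or a piece of another RNA was not tested.

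The 10 candidates of highest mean value are shown because they held nearly all of the signal of the 144, with the seed in capitals and T for U as in the deposited table, each written 5′ to 3′.
PC-3p-33_160524: tTGTGCGTaggacagcggttgt
PC-3p-45_111826: cAGGACAGatgggaatggcatg
PC-3p-66_67138: aATTGCACtcgtcccggcctgcc
PC-3p-204_12326: aATTGCACctgtcccggcctgt
PC-3p-149_19704: tATCACAGcctgcttggacagt
PC-3p-308_7012: tATCACGGcctgctttgatgagc
PC-5p-238_10209: aGCCGCGGttctgtgcaccaact
PC-3p-479_3819: tATCACAGcagcttggtcagtg
PC-3p-957_1696: tCACAACCtgcatgaatgagggct
PC-3p-505_3559: aGCTGCCTgatgaagagctgtcct

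The next set is shown because these candidates came first by p in the group comparisons.
PC-3p-18918_54: aCCATGAAttcaacactgcagt
PC-3p-9728_126: tTAGGCCAgaattacttccga
PC-5p-14591_77: cCAGCCAAgtaatcgctccgcc
PC-3p-4475_307: cGGGACGAtcacttggctggcg
PC-3p-10933_110: aAACAATTacgggctcgcgtgc
PC-3p-8255_152: aACGAGATaaaatgatagcct
PC-5p-2220_666: tTTCGGACcgctctggaccttc
PC-5p-3290_436: cCTTATCActtgttcgtcacagt
PC-5p-5000_271: tCAGCTGTcacgatgccttcttt
PC-5p-8816_141: tCGTCAAAgtggttgtgatgtg

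Each value is a normalized count as the authors deposited it, on a scale whose making the labels leave unstated. The listed lines of a library held 7063405 to 15676183 reads, inferred here from the smallest step between values, and the candidates 84727 to 153025 of these. The lowest value above 0 stood at 5 inferred reads in 8 of 9 libraries. A line listed at 0 may thus have had as many as 4 inferred reads, and possibly more. Of the 63 candidates above 0 in 1 library alone, 1 stood at 5 inferred reads, and their median was 10. Summed over the 9 libraries, the inferred reads of the 10 candidates of highest mean were all even numbers, from 9276 to 372470. A step may thus be worth less than 1 read for many lines, which would make the inferred reads too high. Whether 1 step was worth 1 read for every line was not tested. No accepted miRNA marker of bivalve hemocytes is known here, so the tissue label could not be checked against one. Lines numbered miR-1 and miR-133, which mark muscle in animals, summed to 132549 to 206255 in PBS, 179163 to 230113 with normal exosomes and 138182 to 220465 with LPS exosomes, over 6 lines. The 4 neural lines (miR-7, miR-9 and miR-124) summed to 501 to 608, 207 to 728 and 401 to 832. The 3 gut and endocrine lines (miR-375 and miR-216) summed to 415 to 647 in PBS and 388 to 488 with normal exosomes, below the 709 to 863 with LPS exosomes. Lines of vertebrate blood and liver were limited to 2, at 21.6 to 124, 62.2 to 527 and 29.1 to 158, and miR-451 and miR-144 were not among the lines. The part of these cell types in the results below was not tested. In whole tissue or cell samples, fewer cells of a type and less RNA per cell cannot be told apart.

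Detection fell into a small core and a large fringe. Of the 144 candidates, 30 were above 0 in all 9 libraries, 63 were above 0 in 1 library alone and 51 in 2 to 8. The core held 22 candidates of the 3p arm, 25.3% of that arm, and 8 of the 5p arm, or 14%. Among the 170 lines with a registered miRNA name and the same length, 78 (45.9%) were above 0 in all 9 libraries and 38 (22.4%) in 1 library. The 57 predicted lines of other length were like the candidates, with 9 (15.8%) above 0 in all 9 libraries and 27 (47.4%) in 1 library. The median candidate had a mean of 1.47 normalized counts over the 9 libraries, against 14.6 for the registered lines and 1.59 for the predicted lines of other length. There were 64 candidates with a mean under 1 and 13 with a mean of 100 or more. The 63 candidates seen in 1 library rested on 5 to 22 inferred reads each, with a median of 10, and 26 of them came from a PBS library, 15 from a normal exosome library and 22 from an LPS exosome library.

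The number of candidates above 0 was 64, 60 and 56 for PBS. It was 54, 61 and 74 for normal exosomes and 75, 47 and 51 for LPS exosomes. The 3 groups overlapped. The deepest libraries, normal exosomes 3 with 15676183 inferred reads and LPS exosomes 1 with 14493632, listed 74 and 75 candidates, and the shallowest, LPS exosomes 2 and 3 with 7388060 and 7063405, listed 47 and 51. The part of depth in these counts was not tested.

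**Figure D1:**
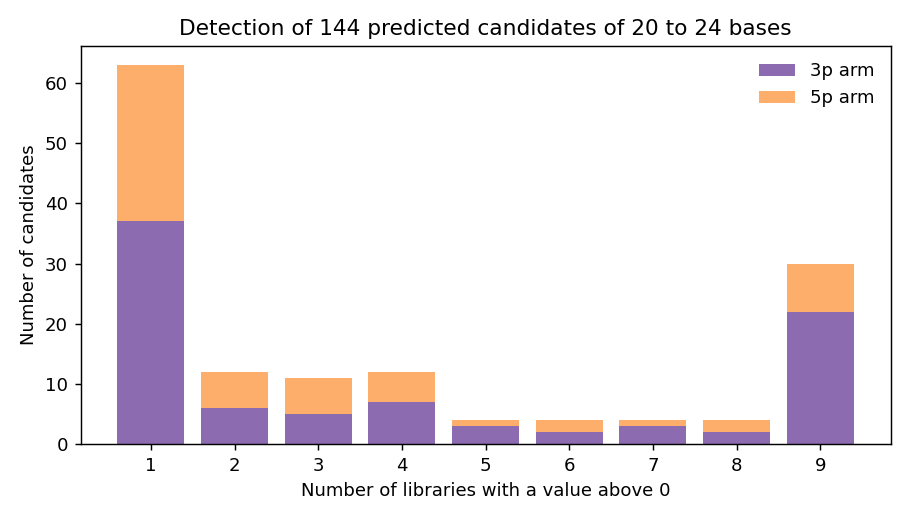
Number of candidates (vertical axis) by the number of libraries, from 1 to 9, in which their value was above 0 (horizontal axis), with 3p candidates in purple and 5p candidates in orange stacked above them. Bars stand tallest at 1 library, with 63 candidates, and at 9 libraries, with 30.

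Length and first base were described without a test. The length limits cut through a run of counts, with 23 predicted lines of 19 bases just outside and 24 of 20 bases just inside, 19 of 24 bases inside and 9 of 25 bases outside. Candidates of 22 bases numbered 50 and those of 23 bases 31. The share above 0 in all 9 libraries was 4.17% at 20 bases, 20% at 21, 22% at 22, 35.5% at 23 and 15.8% at 24. Sequences of 22 bases held 76.5% of the candidates' signal and those of 23 bases 20.2%. T, the usual first base of animal miRNAs, opened 52.8% of the candidates and 57.6% of the registered lines of this length. In the core it opened 54.5% of the 22 candidates of the 3p arm and 25% of the 8 of the 5p arm. G opened none of the 30 candidates of the core and 8 of the 144.

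The candidates together held 1.01% ± 0.226 (SD, n = 3) of the signal of a PBS library. The share was 0.935% ± 0.0502 with normal exosomes and 1.12% ± 0.117 with LPS exosomes. Their range was 0.834% to 1.26% in PBS, which held the other ranges, 0.879% to 0.976% with normal exosomes and 0.989% to 1.22% with LPS exosomes. The 3p arm gave 95.8% to 97.4% of the candidates' signal, and the 10 candidates of highest mean gave 95.8% to 96.6%. The first pair alone, PC-3p-33_160524 and PC-3p-45_111826, gave 51.7% to 67.7%.

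PC-3p-33_160524, a 3p candidate whose seed TGTGCGT no registered line carried, was the most abundant candidate by its mean. It stood at 16566, 17355 and 16226 in PBS, 20318, 23292 and 22413 with normal exosomes and 19686, 23177 and 21320.3 with LPS exosomes. On the deposited scale all PBS libraries were lower than all 6 exosome libraries. Library totals on that scale ran from 4002817 to 6337019. As a share of its library's total, PBS 1 was above normal exosomes 1 and LPS exosomes 1, so the separation rested on the scaling. The log2 fold change was 0.39 ± 0.12 (SE) for normal exosomes and 0.35 ± 0.12 for LPS exosomes against PBS, with adjusted p-values of 0.103 and 0.151 (limma, Benjamini-Hochberg over 162 lines), so neither passed 0.05.

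PC-3p-45_111826 had values of 11448, 11101 and 11026 in PBS, 14552, 13195 and 13812 with normal exosomes and 14085, 12017 and 11649 with LPS exosomes. Again PBS was the lowest group with no overlap on the deposited scale. The log2 fold change was 0.31 ± 0.12 for normal exosomes (adjusted p = 0.246, limma with Benjamini-Hochberg adjustment). As a share of its library's total, PBS 1 was above all normal exosome libraries. PC-3p-66_67138 lay the other way, at 8776, 6335 and 6117 in PBS, 5341, 4562 and 4596 with normal exosomes and 5754, 5158 and 4544 with LPS exosomes. On the deposited scale every PBS library was higher than every exosome library. The log2 fold change was -0.53 ± 0.18 for normal exosomes and -0.44 ± 0.18 for LPS exosomes (limma with Benjamini-Hochberg, adjusted p = 0.148 and 0.188). As a share of its library's total, PBS 2 was below LPS exosomes 2 and 3. PC-3p-204_12326 was high in 1 PBS library, with 6083, 3053 and 2881 in PBS against 2892, 2465 and 2549 with normal exosomes and 2449, 2594 and 2220.3 with LPS exosomes.

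Most of the other 3p candidates of the first 10 overlapped between PBS and an exosome group. PC-3p-149_19704 stood at 2537 to 3089 in PBS, 3108 to 3639 with normal exosomes and 2415 to 2674 with LPS exosomes, so that the normal exosome libraries were the highest. PC-3p-308_7012 ran from 1745 to 3650.1 with all groups overlapping. PC-3p-479_3819 was lowest in PBS, at 438 to 625, against 655 to 1029.7 with normal exosomes and 630.2 to 841 with LPS exosomes. PC-3p-957_1696 and PC-3p-505_3559 ran from 431 to 671 and from 382 to 713, with overlap between the groups. Adjusted p-values for these 10 candidates in the 3 contrasts ran from 0.103 to 0.946 (limma with Benjamini-Hochberg adjustment), so none changed by the threshold used.

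Of the 13 candidates with a mean of 100 or more, PC-3p-958_1693 varied least and PC-3p-824_1990 most. PC-3p-958_1693 stood at 222 to 290.1 over the 9 libraries, a coefficient of variation of 9.0%, the lowest of the 30 in the core. PC-3p-824_1990 stood at 48.7, 228 and 317 in PBS, 401, 435 and 317 with normal exosomes and 61.2, 399 and 493 with LPS exosomes. Its highest library was 10.1 times its lowest, and PBS 1 and LPS exosomes 1 were the low ones. The median coefficient of variation of the core was 33.8%.

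**Figure D2:**
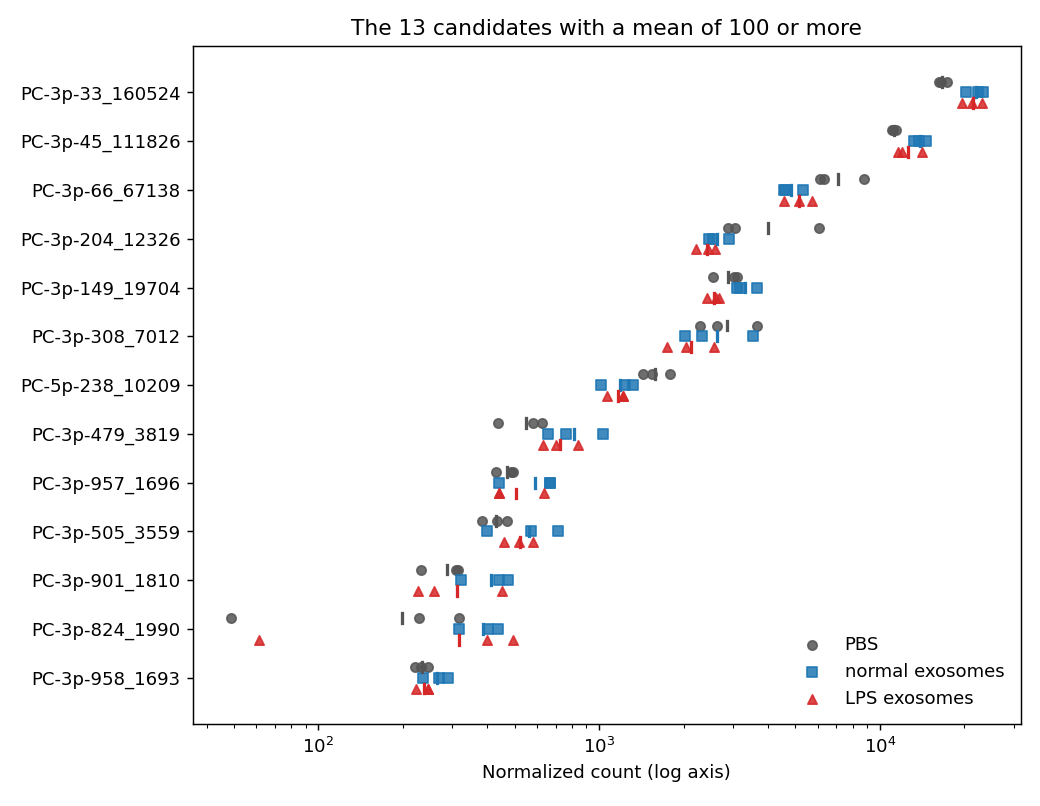
Normalized count (horizontal log axis) of the 13 candidates with a mean of 100 or more in each of 9 libraries, with PBS as grey circles, normal exosomes as blue squares, LPS exosomes as red triangles and a short bar at each group's mean. On this deposited scale, PBS lies below the other libraries for PC-3p-33_160524 and above them for PC-3p-66_67138 and PC-5p-238_10209. PC-3p-824_1990 has 1 PBS and 1 LPS exosome library far below the rest.

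Many core candidates shared a seed with a named miRNA. The 144 candidates had 134 distinct seeds, and 17 candidates (11.8%) carried the seed of at least 1 registered line. Of the 30 in the core, 12 (40%) did, and of the 63 seen in 1 library, 1 (1.59%) did. The 17 gave 27.9% of the candidates' signal. The seed ATTGCAC, that of the miR-92 family found across animals, was carried by PC-3p-66_67138 and PC-3p-204_12326, and the seed ATCACAG, that of the invertebrate miR-2 family, by PC-3p-149_19704, PC-3p-479_3819 and PC-3p-901_1810.

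The miR-92 and miR-2 lines nearest to these candidates are shown because they differ from them at few positions.
cte-miR-92b_2ss10GC11TG: aATTGCACtcgtcccggcctgc
lgi-miR-92_1ss9TC: aATTGCACctgtcccggcctgc
mle-miR-2b-3p_1ss11AT: tATCACAGcctgctttgatgagc
PC-3p-66_67138 held the whole of the first line plus a C at its 3′ end, and PC-3p-204_12326 differed from the second by T22C, where positions count from 1 at the 5′ end, the candidate's base comes first and the registered line's last. PC-3p-308_7012 differed from the third by G7A, which lies in the seed, so its seed ATCACGG was carried by no registered line. The registered lines were far higher, with means of 29616, 110964 and 70616 normalized counts against 5687, 3020.4 and 2529.9 for the candidates.

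In all, 9 candidates began with the full sequence of a registered line and ran 1 or 2 bases further at the 3′ end. As a percentage of the shorter line in the same library, PC-3p-66_67138 ran from 16.6% to 20.8% of the miR-92b line, PC-3p-957_1696 from 2.68% to 3.88% of the mle-miR-67-3p line, PC-3p-505_3559 from 1.83% to 3.33% of the mle-miR-745a-3p line and PC-3p-958_1693 from 2.31% to 2.98% of the lgi-miR-193 line. These are levels within a library and do not depend on how libraries were scaled. The miR-92b line showed the same order of groups as PC-3p-66_67138 on the deposited scale. It stood at 29383 to 45051 in PBS, 24246 to 27642 with normal exosomes and 24816 to 28200 with LPS exosomes. In PBS, PC-3p-958_1693 stood at 2.41% ± 0.00987 of its shorter line (SD, n = 3). The spread was wider in the exosome groups, at 2.70% ± 0.201 with normal exosomes and 2.59% ± 0.355 with LPS exosomes. PC-3p-2785_518 was the exception, as its mean of 90.1 was above the 2.54 of the shorter line of miR-125-3p. The other 4 were PC-5p-5000_271, described below, and PC-3p-21776_44, PC-5p-49566_11 and PC-3p-53355_9, with means of 4.49, 0.874 and 0.541. Registered lines for this and the comparisons of arms were picked after their values were seen.

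Pairs of a 5p and a 3p candidate were then searched for the fit of 2 arms of 1 hairpin. The search asked for 14 or more paired bases, a duplex energy of -20 kcal per mol or lower and 3′ overhangs of 0 to 4 bases, and 7 of the 4959 pairs of a 5p and a 3p candidate met it, with 13 candidates among them. Without a genome, a pairing describes the letters alone and does not place both arms on 1 precursor. The pairs with the most abundant 3p candidates were these, shown 5′ to 3′ without seed capitals.
PC-5p-238_10209: agccgcggttctgtgcaccaact
PC-3p-33_160524: ttgtgcgtaggacagcggttgt
PC-5p-8816_141: tcgtcaaagtggttgtgatgtg
PC-3p-308_7012: tatcacggcctgctttgatgagc
PC-5p-29924_26: ccgatcaagttgctttgtgatgt
PC-3p-479_3819: tatcacagcagcttggtcagtg
PC-5p-14591_77: ccagccaagtaatcgctccgcc
PC-3p-4475_307: cgggacgatcacttggctggcg
The first pair had 17 paired bases at -24.5 kcal per mol, the second 20 at -26.5, the third 18 at -24.1 and the fourth 18 at -28.2. PC-5p-8816_141 also paired with PC-3p-149_19704, over 17 bases at -21.3 kcal per mol, and with several registered miR-2 lines, so it has no single partner here. Nor has PC-5p-14591_77, which also paired with the registered line mle-miR-34-5p, over 17 bases at -21.9 kcal per mol. In each pair of a 5p and a 3p candidate named so far the 3p candidate had the higher mean, which picking pairs by their 3p candidate favours. Within the libraries where both were above 0, it was 9.28 to 22.1 times the 5p candidate for PC-3p-33_160524, 149 to 868 times for PC-3p-308_7012, 74.4 to 210.4 times for PC-3p-479_3819 and 2.69 to 8 times for PC-3p-4475_307. The 5p candidate was listed at 0 in 0, 1, 6 and 2 of the 9 libraries in that order, and these gave no ratio. Among the pairs not shown, PC-5p-93517_5 and PC-3p-51996_10 had equal means of 0.388.

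Candidates also paired with registered lines, in 30 of the 27648 pairs compared, with 21 candidates among them. This search set every candidate against every registered line without regard to arm, so lines named for the same arm could pair. PC-3p-45_111826 paired over 19 bases with the line registered as lgi-miR-1985_R-1, and the candidate was the higher of the pair in each library, at 409% to 1098% of it. PC-5p-3290_436 paired over 18 bases with mle-miR-184-3p, the registered line whose mean was 1171051 against 51.7 for the candidate. The same candidate also paired over 19 bases with dre-miR-184_R+1_1ss9GT, a registered line with a mean of 4846. PC-3p-1846_819 paired over 19 bases with mle-miR-216b-5p. That registered line stood at 285 to 504 in PBS, 255 to 347 with normal exosomes and 648 to 758 with LPS exosomes, and the candidate at 40 to 85.1, 69.9 to 104 and 99.8 to 133.

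The ratio of PC-5p-238_10209 to PC-3p-33_160524 was lower in all 6 exosome libraries than in PBS. PC-5p-238_10209 stood at 1784, 1543 and 1435 in PBS, 1236, 1323 and 1012 with normal exosomes and 1213, 1063 and 1218 with LPS exosomes, so PBS was highest where its partner was lowest. As a percentage of PC-3p-33_160524 in the same library it was 9.50% ± 1.10 (SD, n = 3) in PBS. With normal exosomes it was 5.43% ± 0.813, and with LPS exosomes 5.49% ± 0.812. The lowest PBS library, at 8.85%, was above the highest exosome library, at 6.16%. A two-sided exact permutation test gave p = 0.1 for either exosome group against PBS, the smallest p that 3 libraries against 3 allow, and p = 0.7 between the exosome groups. Adjusted over the 6 comparisons of this kind the exact p-values were 0.15, 0.15 and 0.7. The ratio was chosen after its values were seen, and neither the test nor the adjustment covers that choice.

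PC-5p-5000_271 was the other candidate whose ratio was followed. It is the line registered as mle-miR-1989b-5p with a T more at its 3′ end. It stood at 23.8, 30.9 and 18.9 in PBS, 21.6, 12 and 18.9 with normal exosomes and 35.7, 60.4 and 52.1 with LPS exosomes. All LPS exosome libraries were above all others. As a percentage of the shorter line it was 8.64% ± 0.987 (SD, n = 3) in PBS. With normal exosomes it was 4.73% ± 1.06, and with LPS exosomes 10.1% ± 2.16. The exact permutation p was 0.1 for normal exosomes against PBS, 0.1 between the exosome groups and 0.5 for LPS exosomes against PBS, and 0.15, 0.15 and 0.6 after adjustment over the 6 comparisons. As both ratios were chosen after their values were seen, these p-values describe the chosen ratios alone.

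**Figure D3:**
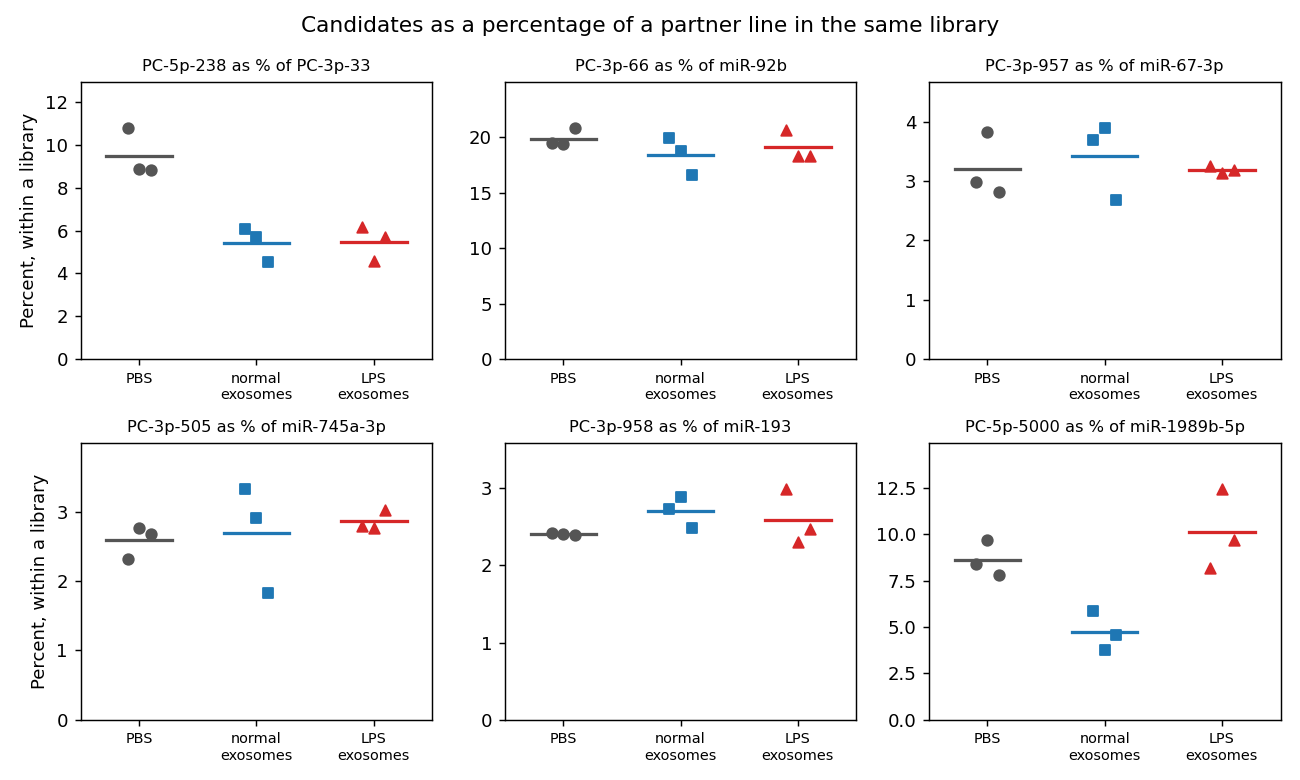
Each panel gives 1 candidate as a percentage of a partner line in the same library (vertical axis, from 0), for 3 PBS libraries (grey circles), 3 with normal exosomes (blue squares) and 3 with LPS exosomes (red triangles), with a bar at the group mean. PC-5p-238_10209 lies between 8.85% and 10.8% in PBS and at 6.16% or below in the exosome groups, and PC-5p-5000_271 is lowest with normal exosomes.

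Group differences were tested for the 36 candidates that reached a value of 10 in 3 or more libraries, 25 of the 3p arm and 11 of the 5p arm, in 1 fit of all 162 lines that met this filter. The other 108 candidates were too low to test. Both exosome groups were set against the same PBS libraries, so those contrasts share their controls. The median log2 fold change of the tested candidates was 0.05 for LPS exosomes against PBS, 0.13 for normal exosomes against PBS and -0.13 for LPS against normal exosomes, beside -0.06, -0.00 and -0.15 over all 162 lines. With each library brought to the same total, the medians of the candidates became 0.18, -0.09 and 0.20, beside 0.07, -0.22 and 0.16 over all lines, so the sign for normal exosomes against PBS and for LPS against normal exosomes rested on the scaling.

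For LPS exosomes against PBS, 1 of the 36 candidates was called at an adjusted p under 0.05, beside 4.32% of all lines tested. It was PC-3p-18918_54, which fell. It stood at 11.9, 32 and 34.7 in PBS and was listed at 0 in all 6 exosome libraries (limma with Benjamini-Hochberg adjustment, adjusted p = 0.0104). It was the only candidate above 0 in every library of 1 group and at 0 in all others, and it met the filter through its PBS libraries alone, so it had to differ to be tested. With no filter its adjusted p was 0.0307, and over the 3 groups together (F-test of limma, Benjamini-Hochberg) it was 0.00823, the 1 candidate called there beside 6.17% of all lines. The call was lost without PBS 2 (limma with Benjamini-Hochberg, adjusted p = 0.115) and without PBS 3 (0.0517), and in a fit of these 2 groups alone (0.0577).

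Next by p for LPS exosomes against PBS came candidates that were lower with LPS exosomes and did not pass. PC-5p-14591_77 stood at 17.3, 11 and 13.7 in PBS, 7.94, 12 and 13.3 with normal exosomes and 3.64, 0 and 0 with LPS exosomes (limma with Benjamini-Hochberg, adjusted p = 0.0545). PC-3p-4475_307 is among the lines it paired with. That 3p candidate stood at 66.0, 58.4 and 54.6, then 63.6, 32.4 and 95.8, then 24.8, 28.4 and 27.2, so the LPS exosome libraries were the lowest for both. Its log2 fold change was -1.13 ± 0.42 (limma with Benjamini-Hochberg, adjusted p = 0.165). PC-3p-10933_110 stood at 18.4, 16.5 and 20 in PBS, 11.3, 16.7 and 17.5 with normal exosomes and 0, 0 and 6.80 with LPS exosomes (limma with Benjamini-Hochberg, adjusted p = 0.0631). PC-3p-8255_152 stood at 68.3 to 80.5, 43.1 to 66.4 and 21 to 45.3, and the LPS exosome and PBS libraries did not overlap, at a log2 fold change of -1.23 ± 0.37 (limma with Benjamini-Hochberg, adjusted p = 0.0977). PC-5p-14591_77 and PC-3p-10933_110 had no LPS exosome library at 10, so both met the filter through the groups in which they were higher. Over the alternatives their adjusted p ran from 0.0175 to 0.196 and from 0.0124 to 0.202 in turn (limma with Benjamini-Hochberg adjustment). Leaving out LPS exosomes 1 or LPS exosomes 3 raised the candidates called in this contrast from 1 to 2.

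PC-5p-3290_436, the candidate that pairs with mle-miR-184-3p, was higher in both exosome groups. It stood at 30.3, 37.5 and 23.1 in PBS, 61.3, 67.7 and 72.7 with normal exosomes and 64.8, 57.9 and 49.9 with LPS exosomes. PBS did not overlap with either group, at a log2 fold change of 0.92 ± 0.32 for LPS exosomes and 1.15 ± 0.32 for normal exosomes (limma with Benjamini-Hochberg, adjusted p = 0.158 and 0.0764). Without the trend and robust settings of limma the adjusted p for normal exosomes was 0.0295 (Benjamini-Hochberg). For mle-miR-184-3p, the PBS libraries overlapped with both exosome groups, and the normal exosome libraries lay above the LPS exosome libraries. It stood at 981097 to 1308303 in PBS, 1230551 to 1382265 with normal exosomes and 1005699 to 1146022 with LPS exosomes.

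Part of the tested candidates had groups that did not overlap. Overlap, here and for single candidates, was judged on the deposited scale and was not recounted under other scalings. For LPS exosomes against PBS, 10 candidates were higher and 10 lower with no overlap, beside 11.7% and 17.3% of all tested lines. For normal exosomes against PBS there were 10 higher and 6 lower, beside 13.0% and 12.3%, and for LPS against normal exosomes 2 higher and 6 lower, beside 12.3% and 13.0%. At an unadjusted p under 0.05 in limma the counts were 15, 10 and 7 of 36, beside 24.1%, 16.7% and 16.0% of all tested lines. The filter sets which candidates are among the 36, so these counts describe them and were not tested against other lines.

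For normal exosomes against PBS, 2 of the 36 candidates were called, beside 4.32% of all lines tested. PC-3p-18918_54 fell, with the values given above (limma with Benjamini-Hochberg, adjusted p = 0.00694), and PC-3p-9728_126 rose. The latter stood at 0, 5.51 and 0 in PBS, 51.1, 55.6 and 72.7 with normal exosomes and 17.5, 7.40 and 0 with LPS exosomes. The normal exosome libraries lay above all others, at a log2 fold change of 5.01 ± 1.16 on the log2(value + 1) scale (limma with Benjamini-Hochberg, adjusted p = 0.0431). It met the filter through the normal exosome libraries and 1 LPS exosome library, with no PBS library at 10, so being low in PBS was tied to being tested. With no filter its adjusted p was 0.00459 (limma with Benjamini-Hochberg adjustment). Both calls were lost in fits with fewer libraries. That of PC-3p-18918_54 was lost without PBS 2, PBS 3 or any normal exosome library (limma with Benjamini-Hochberg, adjusted p = 0.115, 0.0521, 0.0599, 0.0641 and 0.0741 in turn). That of PC-3p-9728_126 was lost without PBS 1 or PBS 3 (0.121 and 0.135), without normal exosomes 1, 2 or 3 (0.171, 0.114 and 0.114) and without LPS exosomes 2 (0.0750, all limma with Benjamini-Hochberg adjustment), at log2 fold changes of 4.56 to 5.11. It was also lost under quantile normalization, with a pseudocount of 0.5 and with a filter on a mean of 10 (limma with Benjamini-Hochberg, adjusted p = 0.0515, 0.0655 and 0.0813). Over all alternatives in which PC-3p-9728_126 was tested, its log2 fold change ran from 2.58 to 5.91.

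Next by p in that contrast, and not past the threshold, was PC-5p-2220_666, at 177, 122 and 113 in PBS, 47.7, 73.2 and 51.0 with normal exosomes and 96.1, 87.5 and 101 with LPS exosomes. The 3 groups were separate, with PBS the highest and normal exosomes the lowest, and the log2 fold change of normal exosomes against PBS was -1.25 ± 0.31 (limma with Benjamini-Hochberg, adjusted p = 0.0539). It passed 0.05 at equal library totals, without trend and robust settings and with identical sequences counted once (limma with Benjamini-Hochberg, adjusted p = 0.0458, 0.0295 and 0.0489), and ran up to 0.279 over the other alternatives. PC-5p-8816_141, the 5p candidate that pairs with miR-2 lines, stood at 0, 4.41 and 2.63 in PBS, 12.5, 7.88 and 13.6 with normal exosomes and 11.3, 9.86 and 9.63 with LPS exosomes. PBS was lowest with no overlap, at a log2 fold change of 2.16 ± 0.76 for normal exosomes (limma with Benjamini-Hochberg, adjusted p = 0.172). It met the filter through exosome libraries alone, so its lower level in PBS was a condition of the test. PC-5p-7658_166, which differs from it by C1T, T2C and A14T, its own base first and positions counted as above, stood at 4.20 to 11.4, 7.94 to 23.2 and 16.0 to 20.4.

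**Figure D4:**
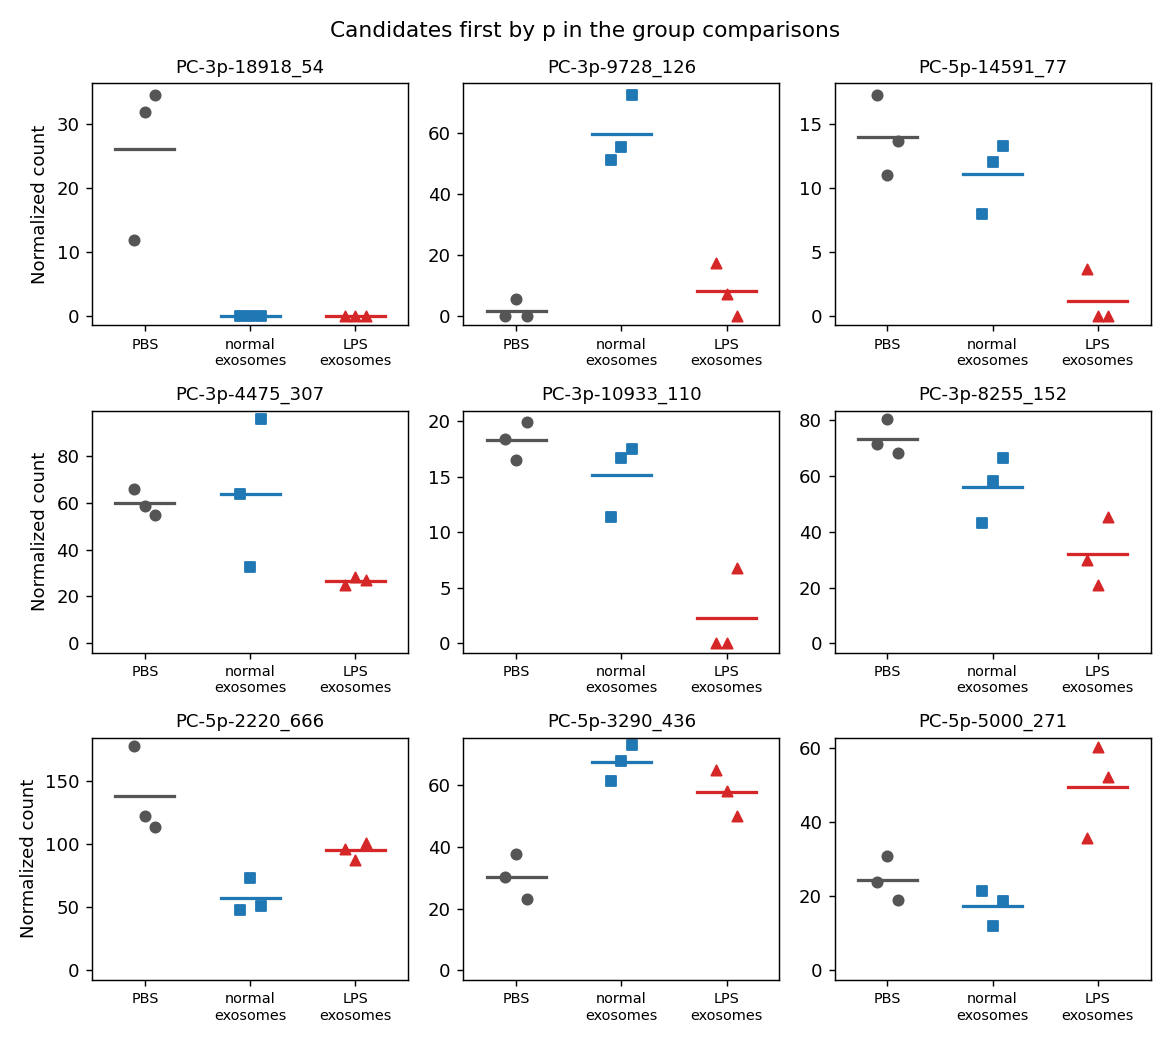
Normalized count (vertical axis) of 9 of the 10 candidates whose sequences are shown for the group comparisons in each PBS (grey circles), normal exosome (blue squares) and LPS exosome (red triangles) library, with a bar at the group mean. PC-3p-18918_54 is above 0 in PBS alone, and PC-3p-9728_126 is highest in the 3 normal exosome libraries, at 51.1 to 72.7.

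For LPS against normal exosomes, none of the 36 candidates was called by limma with Benjamini-Hochberg adjustment, beside 4.32% of all lines tested, and 7 had an unadjusted p under 0.05. First by p were PC-5p-14591_77 and PC-3p-10933_110, both lower with LPS exosomes (limma with Benjamini-Hochberg, adjusted p = 0.0826 and 0.0950). Leaving out LPS exosomes 1 brought the first to an adjusted p of 0.0311, and leaving out LPS exosomes 3 brought the second to 0.0131 (limma with Benjamini-Hochberg adjustment). PC-5p-5000_271 was higher with LPS exosomes, at a log2 fold change of 1.45 ± 0.43 (limma with Benjamini-Hochberg, adjusted p = 0.0993). PC-3p-9728_126, called against PBS, had an adjusted p of 0.148 here (limma with Benjamini-Hochberg adjustment). PC-3p-4475_307 had a log2 fold change of -1.10 ± 0.42 (limma with Benjamini-Hochberg, adjusted p = 0.241).

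Below the filter, patterns of detection followed the groups in few candidates. No candidate was at 0 in all libraries of 1 group and above 0 in the other 6. PC-3p-20801_47 came near, listed at 0 in PBS, at 0, 4.63 and 6.29 with normal exosomes and at 9.47, 12.3 and 11.3 with LPS exosomes. PC-3p-29779_27, which shares its seed TGTGCGT with PC-3p-33_160524, stood at 10.8, 6.62 and 0 in PBS and at 5.67, 0 and 4.19 with normal exosomes, and was listed at 0 in all LPS exosome libraries.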

How the data were processed

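Small RNA of hemocytes was measured in 9 libraries, 3 per group, sequenced on an Illumina HiSeq after TruSeq small RNA preparation. Per the labels' protocols, the ACGT101-miR program took out adapter dimers, low-quality and repeat reads and abundant RNA classes such as rRNA and tRNA. The deposited table gives 1 signal value per line and library, called a normalized count per the file headers. The normalization, aligner and build are not given in the sources, and without a genome no positions are printed. Groups and replicate numbers came from the sample titles. The groups were read together with the series' design text.

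Values were whole multiples of 1 step per library for 99.5% of the 1990 values above 0 (tolerance 0.01 reads). Reads were inferred from this by taking 1 step as 1 read, which may give too many. Intervals from counting error were not computed, because the inferred reads have no molecular identifiers and rest on the step. Lines that reached 10 in 3 or more libraries were tested with limma 3.58.1 (R 4.3.3, statmod 1.5.0, trend and robust settings) on log2(value + 1), with 1 mean per group, all 9 libraries in the model and 6 residual degrees of freedom. Benjamini-Hochberg adjustment ran over the 162 lines tested. This fit was also tested on simulated data, drawn from normal distributions on the log2 scale with no floor on low values. The simulation therefore cannot speak to calls that rest on lines listed at 0. A fold on this scale understates the change of low lines whose values are all above 0. For a line with values at 0 it may be too small or too large, as a 0 may hide 4 inferred reads or more. Where every library of a group stood at 0, the fold was left out. Ratios within a library were compared by two-sided exact permutation tests. Duplexes were computed with RNAduplex of ViennaRNA 2.7.2. Other steps used Python 3.11.15.

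The members and lists were chosen with earlier results of these data known. Candidates named were those called, the next 5 by p in each contrast, the 10 of highest mean, those with a group-bound detection pattern, and examples by mean of shared seeds, arm pairs and nested sequences; others were named after their values were seen. Replicate numbers were checked and did not pair the libraries. Alternatives covered scaling, pseudocount, values at 0, filters, moderation, the groups in the fit, the replicate block, identical sequences and leaving out each library.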

Additional observations from a re-analysis of the deposited data

How the results depend on the processing

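Of the 3 calls on named candidates, none turned direction under any alternative run. The count of candidates called for LPS exosomes against PBS, 1 in the report, was 2 under quantile normalization, 3 with a pseudocount of 10, 3 with values at 0 set to the worth of 4 reads, 2 without trend and robust settings and 0 in a fit of the 2 groups alone. For normal exosomes against PBS, 2 in the report, it was 3 at equal totals, 3 with identical sequences once, 1 under quantile normalization, 1 with a pseudocount of 0.5 and 4 without trend and robust settings. For LPS against normal exosomes, 0 in the report, it was 1 with a pseudocount of 10 and 1 with values at 0 set to the worth of 4 reads. Over any group, 1 in the report, it was 4 with a pseudocount of 10, 4 with values at 0 set to the worth of 4 reads, 2 with no filter and 5 without trend and robust settings. With a filter on a mean of 10 or of 50, the count was 0 in every contrast and over any group. PC-3p-18918_54, with a mean of 8.73, was tested under neither filter, and PC-3p-9728_126, with a mean of 23.3, was tested under the first and lost its call (limma with Benjamini-Hochberg, adjusted p = 0.0813). Leaving out 1 library at a time, the counts ran from 0 to 2, 0 to 2, 0 to 1 and 0 to 3 in that order. The cause of the other shifts was not tested.

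With the replicate number as a block, the counts were 1, 1, 0 and 1, and PC-3p-9728_126 had an adjusted p of 0.0633 (limma with Benjamini-Hochberg adjustment). Libraries of the same number did not deviate together (r of -0.303 to 0.291 over 9 pairs, against -0.345 to 0.365 for other numbers), and 4 of 9 libraries correlated best with their own number. Without the line of highest total, the candidates' share of signal was 1.79% for PBS, 1.69% for normal exosomes and 1.88% for LPS exosomes. The difference between LPS and normal exosomes in PC-5p-238_10209 as a percentage of PC-3p-33_160524, 0.0603 percentage points, turned to -0.276 without LPS exosomes 1, -0.0538 without LPS exosomes 3 and -0.395 without normal exosomes 3, over a range of -0.395 to 0.511. Over 18 results on named candidates and 22 alternatives, 347 values kept their direction and side of the threshold, 18 lost a call and 16 gained one. The planned count tests (edgeR and DESeq2 on whole reads) were not run, because reads could be inferred from the steps but not recovered from the files. A floor of 5 inferred reads limits every statement on values of 0.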

Other observations

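PC-3p-29847_27 and PC-3p-43917_13, 3p candidates of 20 bases with the seed TATTGAT, were both high in PBS 1 and in no other library. The sequences are shown because they differ at adjacent positions, C11T and A12G from the second to the first, counted from 1 at the 5′ end.
PC-3p-29847_27: aTATTGATagtgactgagga
PC-3p-43917_13: aTATTGATagcaactgagga
PC-3p-29847_27 stood at 143.8 in PBS 1, was listed at 0 in PBS 2 and PBS 3 and did not pass 8.39 in any other library. PC-3p-43917_13 stood at 55.1 in PBS 1 and did not pass 5.56 elsewhere. With a value of 10 or more in 1 library each, neither was tested.

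PC-3p-29528_27 and PC-3p-32653_23 differ by A1C from the second to the first and were at most 10.8 and 14.1 in any library. From their second base on they are near PC-3p-552_3225, a predicted line of 19 bases with a mean of 178, at G10T. PC-3p-552_3225 stood at 169 to 309 in PBS, 135 to 441 with normal exosomes and 23.3 to 86.9 with LPS exosomes. PC-3p-1990_749, another line of 19 bases near both, was listed at 0 in the PBS and normal exosome libraries and at 146 to 313 with LPS exosomes. Both lines fall outside the length limits of the candidates described here.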
